A study of Mus musculus with 12 samples.

Results

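GM-CSF cultures of mouse bone marrow were profiled on 12 single-colour arrays, and 10 genes are described here that had higher signals in cultures with Ro41-5253 (Ro) than in cultures with all-trans-retinoic acid (RA) or with no retinoid (control). The genes are Rtn1, Kctd14, Nedd4, Scin, Adcy6, Calcb, Bex6, Cdh1, Cd72 and P2ry10. They are 10 of the 18193 genes that single-gene probe sets of the array name, and they carry 15 of its 34945 such probe sets. All 10 passed the filter on low signals that left 12429 genes for testing. The filter asked for 2 of 12 arrays, so that the Ro arrays alone could carry a member past it. Because the genes were picked for their Ro signals against control and RA, those differences are given as a description and with no test. No numeric threshold came with that choice.

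The marrow came from BALB/c and BL6 mice aged 6 to 8 weeks, and all cultures grew for 10 days with GM-CSF at 20 ng/ml. The 6 conditions were control, RA at 10 nmol and Ro at 100 nmol, each without and with LPS at 1 ug/ml. Each condition had 1 array from each strain, so that every group holds 2 arrays. All BALB/c arrays share a replicate number and all BL6 arrays share the other, so that strain and replicate set cannot be told apart. The retinoid agents were present from the start of culture, and the time of LPS addition is not stated separately. The doses are written as nmol in the design text and as nmol per ml in the sample labels, so the molar concentration is not settled. Nothing states whether the cultures of a strain came from separate animals, and p-values therefore measure the spread between these arrays. The cultures are whole marrow cultures labelled as dendritic cells. Of 17 conventional dendritic cell markers on the array, none lay below background on all 12 arrays, and the same held for 13 macrophage and 10 granulocyte markers. Array medians ran from 21.4 to 41.8 in deposited signal units, and a signal under 41.8 is called background below.

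Retinoic acid, made from vitamin A, binds nuclear receptors (RARs) that sit on DNA as pairs with retinoid X receptors, often at repeats of AGGTCA-type sites. Without ligand such a pair can hold corepressors at its target genes. Ro41-5253 is known as an antagonist of RAR alpha. In dendritic cells, the antigen-presenting cells of the immune system, retinoic acid is known for its part in gut-homing and tolerance programmes. LPS, a bacterial cell wall component, is the usual stimulus for dendritic cell maturation.

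Promoter sequence was at hand for 6 of the 10 genes (Cd72, Nedd4, Scin, Rtn1, Bex6 and P2ry10), with 10 start sites among them. The 250 bases before each start, taken from RefSeq on GRCm38.p6, were searched on both strands for the RAR repeat unit AGGTCA, its variants with GGTTCA or with AGTTCA as letters, and GAGGAAGT, a form of the site of the myeloid factor PU.1. The PU.1 form was chosen after these promoters had been seen. AGGTCA was found in 2 of the 10 windows and in 14% of 32851 mouse promoters. The other units were in none of the 10 windows, against 8.85% for GGTTCA and 11.8% for AGTTCA among all promoters. GAGGAAGT was found in 2 of the 10 windows and in 2.44% of all. Since that form was chosen after the windows had been seen, nothing is read from its count. Direct repeats of such units spaced by 1, 2 or 5 bases, which lie in 0.0822%, 0.116% and 0.0548% of all promoters, were in none of the 10. The 4 windows with a match are printed 5′ to 3′ on the strand of the gene, each ending at the base before the start, with the match in capitals (its reverse complement where the match is on the other strand). The windows before the other Rtn1 starts had no match. A match of these letters is a description and not evidence of binding.
Rtn1 promoter (chr12:72409055-72409304, minus strand; AGGTCA, 91 bases before the start): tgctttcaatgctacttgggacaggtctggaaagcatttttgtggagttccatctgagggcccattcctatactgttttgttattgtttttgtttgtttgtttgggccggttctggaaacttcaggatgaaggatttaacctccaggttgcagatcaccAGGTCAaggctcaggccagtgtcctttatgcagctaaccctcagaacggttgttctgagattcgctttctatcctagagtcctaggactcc
P2ry10 promoter, first start (chrX:107088242-107088491, plus strand; AGGTCA on the other strand, 79 bases before the start): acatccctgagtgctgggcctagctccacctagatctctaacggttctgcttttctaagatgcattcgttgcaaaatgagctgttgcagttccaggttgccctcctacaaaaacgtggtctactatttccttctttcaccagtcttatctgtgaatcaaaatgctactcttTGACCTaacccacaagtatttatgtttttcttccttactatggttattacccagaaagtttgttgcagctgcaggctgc
P2ry10 promoter, second start (chrX:107089083-107089332, plus strand; GAGGAAGT on the other strand, 31 bases before the start): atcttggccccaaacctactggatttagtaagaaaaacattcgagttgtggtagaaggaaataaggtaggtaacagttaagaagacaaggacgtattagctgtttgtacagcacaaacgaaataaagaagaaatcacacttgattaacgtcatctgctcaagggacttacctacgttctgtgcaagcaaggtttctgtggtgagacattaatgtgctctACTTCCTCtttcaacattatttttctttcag
Cd72 promoter (chr4:43454627-43454876, minus strand; GAGGAAGT on the other strand, 49 bases before the start): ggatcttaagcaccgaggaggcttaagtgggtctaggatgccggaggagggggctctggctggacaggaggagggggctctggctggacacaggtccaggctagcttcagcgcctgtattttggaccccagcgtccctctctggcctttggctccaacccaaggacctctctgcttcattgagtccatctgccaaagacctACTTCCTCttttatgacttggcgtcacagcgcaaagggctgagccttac

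With and without LPS, both Ro arrays lay above all 4 control and RA arrays of the same LPS state for each of the 10 genes, as 19.6% of all tested genes did without LPS and 28.8% did with LPS. Nothing is read from that count, since these arrays chose the genes. The choice did not use the LPS or strain differences, while RA and control signals both entered it. Kctd14 and Cd72 rose with LPS, Rtn1, Cdh1, Bex6 and Nedd4 fell, and Scin, Adcy6, Calcb and P2ry10 did not pass the test. Of all tested genes, 58.7% were called for LPS, 10.9% higher and 47.7% lower, so the number of calls is close to the background. Log2 changes are of signal + 16, with the standard error (SE) of the limma fit, and are given relative to the median change of all tested genes in that contrast, while the test itself (Benjamini-Hochberg adjusted p under 0.05) was run at the deposited scaling. With LPS that median was -0.41. In whole cultures, fewer cells of a type and less RNA per cell cannot be told apart.

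**Figure D1:**
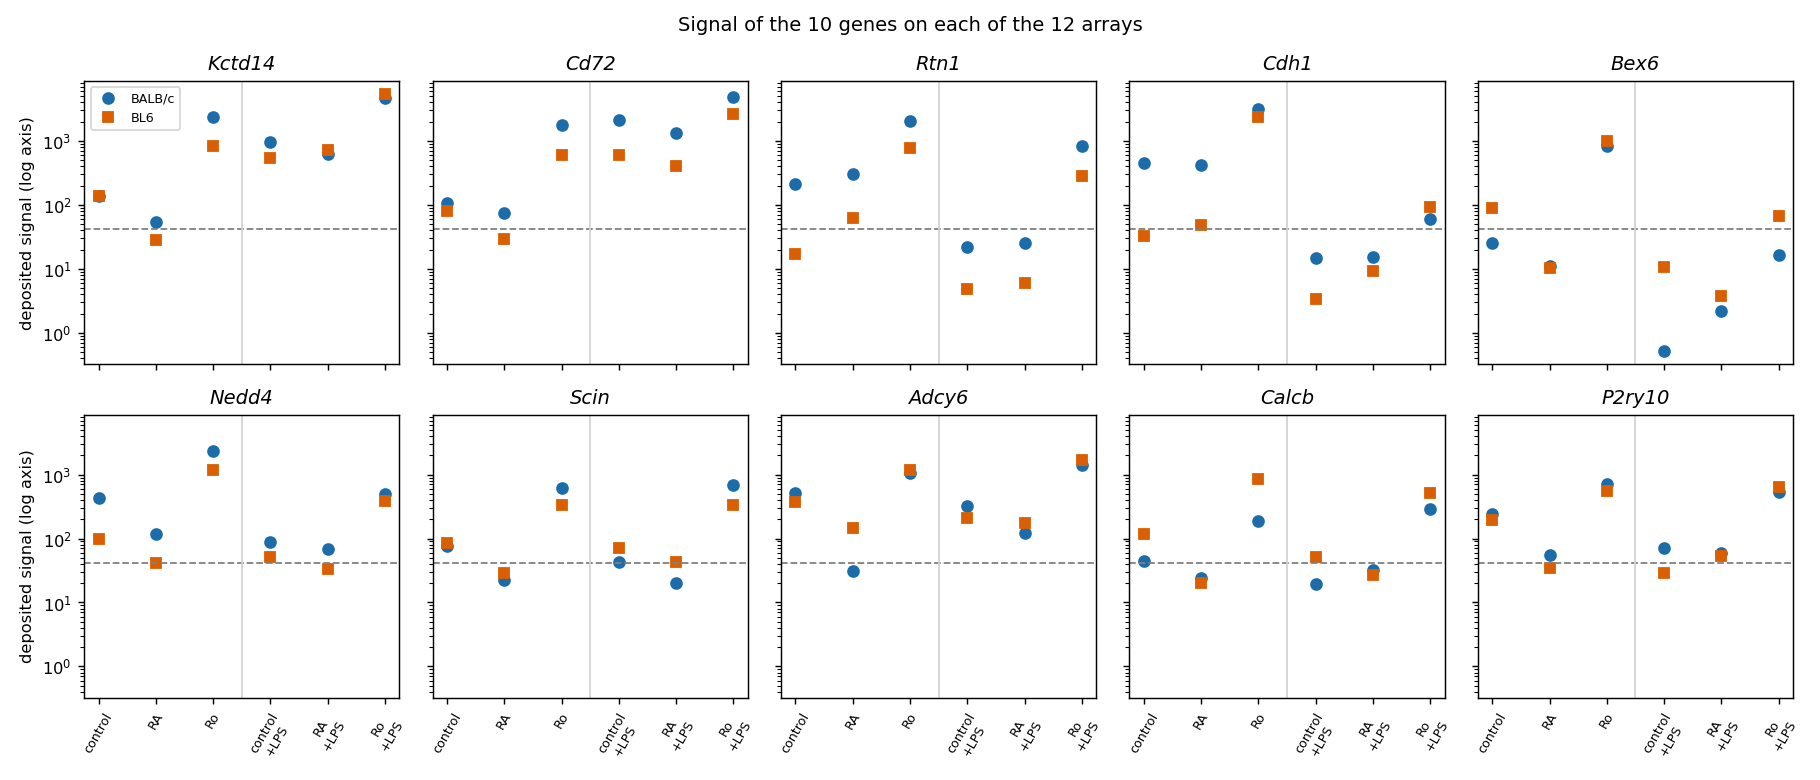
Deposited signal (log axis) of each of the 10 genes on the 12 arrays, by condition, with circles for BALB/c and squares for BL6. The dashed line is the highest array median, 41.8. Within each LPS state the Ro arrays lie above the other arrays of every gene, Kctd14 and Cd72 lie higher with LPS, and Cdh1 lies under 100 on all 6 LPS arrays.

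Among the surface receptors, Cd72 codes for a C-type lectin receptor with an inhibitory cytoplasmic motif, best known on B cells. Without LPS its signals in BALB/c and BL6 were 107 and 80.9 in control, 73.8 and 29.7 in RA, and 1772 and 594 in Ro. With LPS they were 2163 and 607 in control, 1320.2 and 404 in RA, and 4874 and 2629 in Ro. Every LPS array lay above the array of the same strain and retinoid state without LPS, and control cultures with LPS overlapped Ro cultures without it. Over all retinoid states Cd72 rose by 3.32 ± 0.30 with LPS (adjusted p = 7.4e-06, n = 6 arrays per arm). BALB/c arrays lay above BL6 arrays in all 6 conditions, by 1.06 ± 0.30 (adjusted p = 0.0179). That strain call was lost under quantile normalization (adjusted p = 0.0657) and without the BALB/c control array with LPS (0.0522).

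The excess of Ro over control was smaller with LPS for Cd72. The ratio was 16.6 in BALB/c and 7.34 in BL6 without LPS, and 2.25 and 4.33 with LPS. The LPS change in Ro cultures minus that in control and RA cultures was -1.78 ± 0.40 and did not pass (adjusted p = 0.0649). It passed in 3 alternative fits, with the lowest adjusted p at 0.0398 when the BL6 control array without LPS was left out.

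P2ry10 codes for a G protein-coupled receptor of lysophosphatidylserine. Its signals without LPS were 244 (BALB/c) and 193 (BL6) in control, 55.0 and 34.7 in RA, and 716 and 549 in Ro. With LPS the control signals were 70.8 and 28.6, the RA signals 58.6 and 53.0, and the Ro signals 529 and 637. The 4 Ro arrays formed a narrow band above all others, the control arrays without LPS came next, and the remaining 6 arrays lay at or near background. P2ry10 fell with LPS in control cultures, by 1.38 ± 0.31 (adjusted p = 0.00076). In Ro cultures its LPS change was 0.23 ± 0.31 (adjusted p = 0.827) and in RA cultures 0.66 ± 0.31 (adjusted p = 0.543). Averaged over the retinoid states it was -0.18 ± 0.32 (adjusted p = 0.131), which passed when the average came from a model of the 6 conditions (0.0136). The change in Ro minus that in control was 1.65 ± 0.43 and did not pass (adjusted p = 0.0848). Its strain difference was 0.19 ± 0.32 (adjusted p = 0.518).

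Cdh1 codes for E-cadherin, the calcium-dependent adhesion protein of epithelia that also joins Langerhans cells to keratinocytes. Without LPS its signals were 453 in BALB/c and 32.8 in BL6 control cultures, 426 and 48.0 in RA cultures, and 3159 and 2377 in Ro cultures. With LPS they were 14.9 and 3.39 in control, 15.1 and 9.24 in RA, and 60.3 and 93.2 in Ro. The Ro cultures with LPS stayed above the other LPS cultures yet below the BALB/c control culture without LPS. Cdh1 fell by 2.97 ± 0.52 over all retinoid states (adjusted p = 0.00016) and fell by 4.57 ± 0.76 in Ro cultures (adjusted p = 0.00097). Control and RA cultures with LPS were below background, and their falls of 2.10 ± 0.76 (adjusted p = 0.0163) and 2.19 ± 0.76 (adjusted p = 0.0234) end there. The fall in RA was lost with a pseudocount of 64 (adjusted p = 0.0527) and without either BALB/c RA array (0.172 to 0.251). The fall in control was lost without the BALB/c control array (0.206) and without either control array with LPS (0.0544 to 0.0986). The LPS change in Ro minus that in control and RA was -2.39 ± 0.90 (adjusted p = 0.253). BALB/c exceeded BL6 in the control and RA cultures without LPS by far more than in the Ro cultures, but neither the strain difference (1.01 ± 0.52, adjusted p = 0.154) nor the difference of the Ro change between strains (-1.59 ± 1.02, adjusted p = 0.976) passed.

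Among the signalling genes, Adcy6 codes for a calcium-inhibited membrane adenylyl cyclase, an enzyme that makes cyclic AMP. Its signals without LPS were 508 and 367 in control (BALB/c, then BL6), 30.6 and 147 in RA, and 1068 and 1170.5 in Ro. The LPS arrays gave 323 and 211 in control, 122 and 177 in RA, and 1434 and 1674 in Ro. The order was the same in both LPS states, with Ro above control above RA and no overlap between these 3 groups. Adcy6 had the largest RA change of the 10 genes, -1.58 ± 0.39 against control, which did not pass (adjusted p = 0.200, over alternatives 0.0803 to 0.855). The BALB/c RA array without LPS was the lowest of the 12. Its LPS change was 0.64 ± 0.32 and did not pass (adjusted p = 0.564).

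Calcb codes for the beta form of calcitonin gene-related peptide, a vasodilator neuropeptide. Without LPS its BALB/c and BL6 signals were 44.5 and 117 in control, 24.0 and 19.8 in RA, and 188 and 839.5 in Ro. In cultures with LPS they were 19.6 and 51.9 in control, 32.2 and 27.0 in RA, and 294 and 511 in Ro. All 4 RA arrays and the BALB/c control array with LPS lay below background, while the 4 Ro arrays lay above every other array. BL6 exceeded BALB/c on the control and Ro arrays of both LPS states, and BALB/c exceeded BL6 in RA. The strain difference was -0.91 ± 0.29 (adjusted p = 0.0970) and passed when the BALB/c RA array with LPS was left out (0.0460). The LPS change was 0.19 ± 0.29 relative to the median gene and -0.22 at the deposited scaling (adjusted p = 0.549).

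Nedd4 codes for a HECT-type ubiquitin ligase that tags membrane and signalling proteins for sorting or breakdown. Control cultures without LPS gave signals of 432 in BALB/c and 97.1 in BL6, RA cultures 118 and 42.2, and Ro cultures 2362 and 1162. The LPS cultures gave 89.2 and 52.1 in control, 68.4 and 33.4 in RA, and 501 and 382 in Ro. BALB/c was above BL6 in all 6 conditions, and RA was below control in all 4 pairs of strain and LPS state. Nedd4 fell with LPS by 0.84 ± 0.26 (adjusted p = 0.0013), a call that BL6 arrays alone did not give (0.0859). In Ro cultures, where the call was lost without the replicate block (0.0701), the fall was 1.54 ± 0.36 (adjusted p = 0.0028). In control cultures it was 0.89 ± 0.36 (adjusted p = 0.0083) and was lost under quantile normalization (0.116) and without either BALB/c control array (0.0682 to 0.140). The strain difference of 0.85 ± 0.26 (adjusted p = 0.0230) was lost with a pseudocount of 64 (0.0530) and in 5 of the 12 fits that left out 1 array (0.0544 to 0.0636). All 3 Nedd4 probe sets gave the LPS and strain calls, with LPS changes of -1.40 to -0.83 and strain differences of 0.73 to 0.90.

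Scin codes for scinderin (adseverin), a calcium-dependent actin-severing protein of the gelsolin family. Its control signals without LPS were 76.8 in BALB/c and 84.9 in BL6, its RA signals 22.8 and 28.5, and its Ro signals 626 and 336. With LPS the signals were 42.9 and 70.7 in control, 19.9 and 42.3 in RA, and 684 and 337 in Ro. In each strain the Ro signals with LPS lay close to those without, and RA was below control in all 4 pairs. Its LPS change was 0.33 ± 0.24 relative to the median gene and -0.08 at the deposited scaling (adjusted p = 0.798). The Ro change was larger in BALB/c than in BL6 by 1.54 ± 0.35, a difference that did not pass in limma (unadjusted p = 0.00315, adjusted p = 0.575).

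Rtn1, with an AGGTCA match before only the start printed above, codes for a reticulon, a membrane protein that shapes the tubular endoplasmic reticulum. In control cultures without LPS it gave 209 in BALB/c and 16.8 in BL6, in RA cultures 299.9 and 62.0, and in Ro cultures 2019 and 769.7. The signals with LPS were 22.0 and 4.86 in control, 25.6 and 5.95 in RA, and 832 and 284 in Ro. BALB/c lay above BL6 in all 6 conditions, and the control and RA arrays with LPS were all below background. The strain difference was 1.43 ± 0.26 (adjusted p = 0.00273) and held in each of 19 alternative fits. Rtn1 fell with LPS by 1.36 ± 0.26 (adjusted p = 0.00012), in RA cultures by 1.98 ± 0.42 (adjusted p = 0.0019), and in Ro cultures by 0.98 ± 0.42 (adjusted p = 0.0354). The last of these was lost with a pseudocount of 1 (0.0561), with no filter (0.0611), and without any 1 of the 4 Ro arrays (0.101 to 0.173). Its fall in control cultures, 1.09 ± 0.42 (adjusted p = 0.0101), was lost without either BALB/c control array (0.0998 to 0.155). It was the member with the highest RA value, 0.47 ± 0.32 above control (adjusted p = 0.716), and RA was above control in all 4 pairs.

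Kctd14 belongs to a family of BTB domain proteins, several of which serve as adaptors of cullin ubiquitin ligases. The signals of its brightest probe set without LPS were 138 and 137 in control (BALB/c and BL6), 53.5 and 28.4 in RA, and 2386 and 845 in Ro. The LPS signals were 978 and 549.5 in control, 619 and 727 in RA, and 4759 and 5448 in Ro. Each LPS array lay above its counterpart without LPS, and Ro with LPS gave the highest signals of all. Kctd14 rose with LPS by 2.99 ± 0.30 (adjusted p = 2.1e-05), with all 4 of its probe sets between 2.77 and 3.25 and each called. The rise was 2.81 ± 0.38 in control (adjusted p = 0.00097), 4.03 ± 0.38 in RA (adjusted p = 0.00011) and 2.17 ± 0.38 in Ro (adjusted p = 0.0050). The rise in Ro was lost without either BL6 Ro array (0.0509 to 0.0683). The probe sets disagreed on strain, at -1.22 to 0.33 with 1 of 4 called, so no strain difference is given for Kctd14.

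Bex6 belongs to a small family of proteins named for brain expression. Without LPS it gave 25.1 and 90.6 in BALB/c and BL6 control cultures, 10.9 and 10.2 with RA, and 822 and 1001 with Ro. With LPS it gave 0.512 and 10.6 in control, 2.19 and 3.83 in RA, and 16.6 and 67.4 in Ro. Only the Ro arrays without LPS, the BL6 control array without LPS and the BL6 Ro array with LPS were above background. Bex6 fell with LPS by 1.69 ± 0.49 over all retinoid states (adjusted p = 0.0027) and by 3.80 ± 0.40 in Ro cultures (adjusted p = 6.3e-05). Its fall in control cultures, 1.14 ± 0.40 (adjusted p = 0.0066), was lost without the BL6 control array (0.0761). It was the only member called for a difference between its LPS change in Ro and that in control and RA, at -3.16 ± 0.55 (adjusted p = 0.0240). Of the 4 control and RA arrays without LPS, only the BL6 control array was above background, so that falls in those cultures are measured against the floor. The difference was lost with a pseudocount of 1 (0.365), without the replicate block (0.100), without either BALB/c Ro array (0.149 to 0.150) and without the BL6 Ro array without LPS (0.0776). Against control cultures alone it did not pass (-2.63 ± 0.57, adjusted p = 0.0771).

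Counted together, 6 of the 10 genes were called for LPS (2 higher, 4 lower), where 58.7% of all tested genes were called, 10.9% higher and 47.7% lower. That share is close to the background. Within control cultures 7 members were called (2 higher, 5 lower) against 45.5% of all genes, 7.98% higher and 37.5% lower. Within RA cultures 4 were called (2 higher, 2 lower) against 35%, 6.48% higher and 28.5% lower. Within Ro cultures 6 were called (2 higher, 4 lower) against 29.8%, 5.95% higher and 23.9% lower. The Ro signals behind this last count also chose the genes, and nothing is read from it. Cd72 and Kctd14 rose and Rtn1 and Cdh1 fell in each of the 3 retinoid states in the main fit. Without the replicate block, the calls of Rtn1 were lost in all 3 states (adjusted p = 0.0968 to 0.374). So were those of Cdh1 in control (0.0634) and RA (0.0865), Nedd4 in control (0.120) and Ro (0.0701), and Cd72 in Ro (0.122). For the difference between the LPS change in Ro and that in control and RA, 1 of 10 members was called (Bex6, lower), against 1.55% of all genes, 0.652% higher and 0.901% lower. Against control alone the count was 0 of 10 by limma, with 3 members at an unadjusted p under 0.05 and 0.668% of all genes called, 0.257% higher and 0.41% lower.

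**Figure D2:**
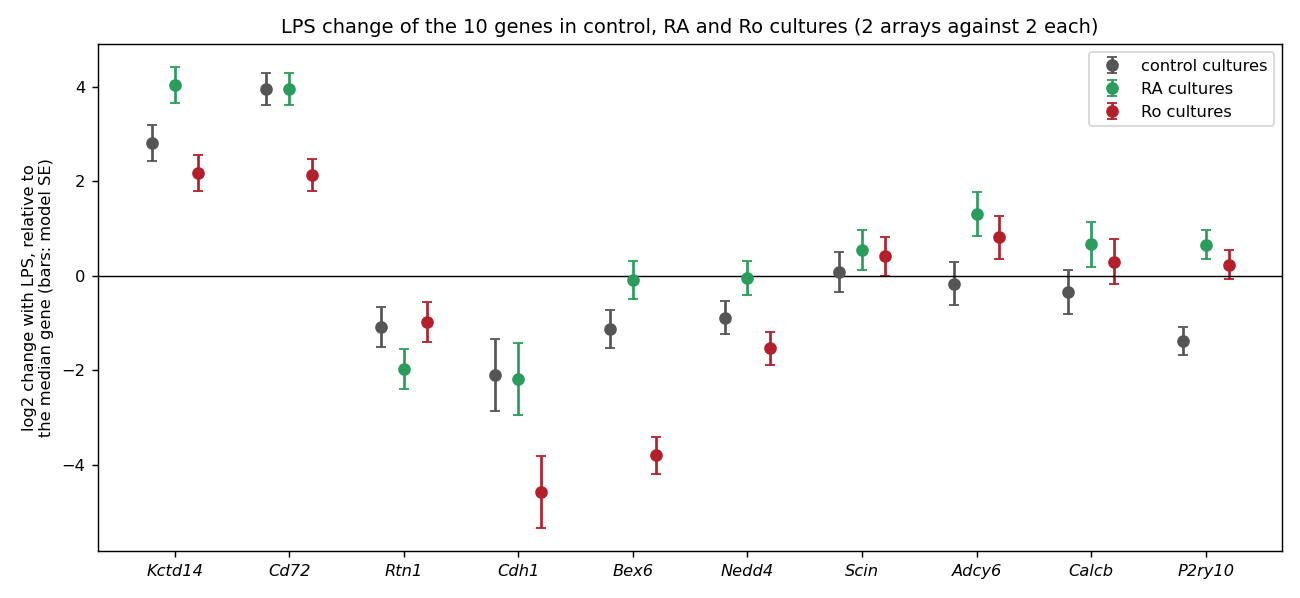
Log2 change with LPS of each gene in control, RA and Ro cultures, relative to the median gene, with bars for the model's SE (2 arrays against 2). The rises of Kctd14 and Cd72 appear in all 3 states, and the falls of Bex6 (-3.80) and Cdh1 (-4.57) in Ro cultures lie below their values in the other states.

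Between strains, 3 of 10 members were called (Rtn1, Nedd4 and Cd72, all higher in BALB/c), against 15.2% of all genes, 11.4% higher and 3.81% lower in BALB/c. Such a difference cannot be told apart from one between the replicate sets, which coincide with strain. The difference of the Ro change between strains was called for 0 of 10 by limma, with 1 member (Scin) at an unadjusted p under 0.05 and 0.0322% of all genes called, 0.00805% higher and 0.0241% lower.

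RA, the receptor's agonist, was also set against control. This comparison shares the control arrays with the choice of the genes, which required low RA and control signals alike. Averaged over the LPS states, no member was called by limma, as 0% of all genes were (1026 of the 12429 genes had an unadjusted p under 0.05, the members Nedd4, Scin, Adcy6 and P2ry10 among them). Of the 10 averaged values, 8 lay below the median gene, from -1.58 for Adcy6 upward, and only Rtn1 (0.47) and Cdh1 (0.16) lay above it. In the limma model of 6 conditions, P2ry10 passed without LPS, at -1.93 ± 0.31 in RA against control (adjusted p = 0.0433). With LPS it was at 0.13 ± 0.31 (adjusted p = 0.881). Adcy6 without LPS was at -2.33 ± 0.46 and did not pass (adjusted p = 0.0818). The share of all genes called within an LPS state was not counted. RA and control signals both entered the choice of the genes, so nothing is read from the P2ry10 call. RA was below control in all 4 pairs of strain and LPS state for Nedd4, Scin, Adcy6 and Cd72, where 9.9% of all genes showed this. These 4 also ran from RA through control to Ro in all 4 pairs (2.92% of all genes). Both counts rest on arrays that chose the genes, the Ro step being fixed by the choice, and nothing is read from them. The signals of Scin, Calcb and Bex6 in RA cultures were at or below background on average, which bounds how far they could be seen to fall.

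**Figure D3:**
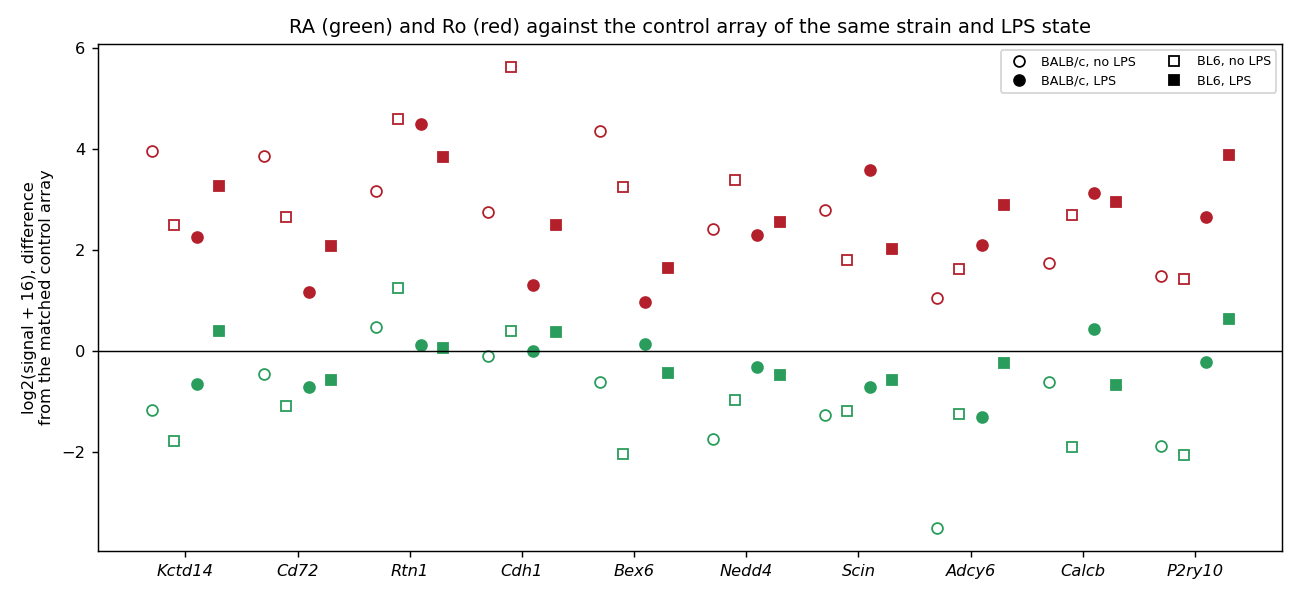
Difference in log2(signal + 16) between each RA (green) or Ro (red) array and the control array of the same strain and LPS state, not corrected for the median gene. All Ro values lie above 0, as the choice of the genes implies, while RA values run from well below 0 (Adcy6 in BALB/c without LPS) to above it for Rtn1.

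As a description, the Ro changes against control, averaged over strain and LPS, ran from that of Rtn1 (3.80 ± 0.32) through those of Cdh1 (2.82 ± 0.64), Kctd14 (2.77 ± 0.37), Nedd4 (2.43 ± 0.32) and Calcb (2.40 ± 0.36). Bex6 (2.34 ± 0.60), Scin (2.32 ± 0.29), Cd72 (2.22 ± 0.36), P2ry10 (2.14 ± 0.39) and Adcy6 (1.69 ± 0.39) were lower, and most neighbours in this order lay within their SE. The sizes for Rtn1, Cdh1, Bex6 and Calcb are set against control means below background in at least 1 LPS state, and they move with the pseudocount and the arrays used. Over 22 alternatives Bex6 ran from 1.64 to 3.37, Cdh1 from 1.93 to 3.70, Rtn1 from 2.84 to 4.61 and Calcb from 1.82 to 2.73, so that the order is not settled. Against RA the 10 changes ran from 2.66 for Cdh1 to 3.59 for Kctd14. Over all tested genes Ro calls against control were 14% higher and 4.35% lower (18.4% in all), and against RA 14.4% higher and 5.36% lower (19.8% in all). The 4 Ro arrays lay above all 8 other arrays, whatever the LPS state, for Scin, Adcy6, Calcb and P2ry10 (3.22% of all genes). Nothing is read from that count either, since the Ro signals chose the genes, and a gene that moves far with LPS overlaps across LPS states by construction.

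Genes chosen for high Ro signals correlate through the Ro arrays by that choice. Over all 12 arrays the 45 pairwise correlations of log2 signal ran from -0.04 to 0.952, with a median of 0.696, from which nothing is read. Over the 8 arrays without Ro they ran from -0.69 to 0.970 with a median of 0.231, and 26 of 45 were above 0. On those 8 arrays the closest pairs were Rtn1 with Cdh1 (r = 0.970), Kctd14 with Cd72 (0.939) and Calcb with Bex6 (0.878), and the farthest was Rtn1 with Kctd14 (-0.69). Of the 8, Bex6 was above background only on the BL6 control array without LPS (90.6), where Calcb was also highest (117). Rtn1 and Cdh1 were below background on those of the 8 with LPS. The arrays share strain and LPS state, so these values are descriptions and carry no test.

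The tested genes whose log2 signals followed the members' mean most closely over the 12 arrays, by Pearson's r, were Bcl6 (0.969), Tcaf2 (0.967), Zbtb46 (0.965), Plekha5 (0.965), Slc1a4 (0.964), Radil (0.959), B3gnt5 (0.956) and Zfand6 (0.945). Bcl6 is a transcriptional repressor and Zbtb46 a transcription factor of conventional dendritic cells. Bcl6 signals were 419 to 670.1 on the Ro arrays and 75.8 to 284 on the other 8. Zbtb46 signals were 343 to 501 on the Ro arrays and 26.2 to 134 elsewhere. B3gnt5, a glycosyltransferase of glycolipid synthesis, gave 137 to 298 with Ro and 7.14 to 64.8 without. Since the members' mean was high with Ro by choice, so were the genes most like it. The member closest to the mean was P2ry10 (0.954) and the farthest was Cd72 (0.587).

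The relatives of the 10 genes did not share one direction. In 10 lists of family or pathway genes and 1 of retinoic acid receptors and response genes, 86 other genes were tested. Of these, 8 were higher and 9 lower in Ro than in control cultures, which is 19.8% against 18.4% of all genes (14% higher and 4.35% lower), with a median change of -0.17. The retinoic acid list, which holds no relatives of the 10 genes, gave 3 of the 9 lower calls and 0 higher. Of the 17 calls, those of P2ry2, Kctd5, Capg, Bex1 and Smurf1 were lost in 15, 14, 13, 10 and 9 of 22 alternative fits, and each of the other 12 in at most 4. The other tested reticulons, Rtn3 (-0.28 ± 0.15) and Rtn4 (-0.18 ± 0.15), were not called. Of the other adenylyl cyclases 0 of 6 were called by limma, and all 6 had an unadjusted p over 0.05, with Adcy5 at 0.28 ± 0.27 below background, Adcy7 at -0.71 ± 0.26 (adjusted p = 0.202) and Adcy9 at -0.52 ± 0.32. The calcitonin list likewise had 0 of 5 called, with Ramp1, a subunit of the calcitonin gene-related peptide receptor, at -1.24 ± 0.34 (adjusted p = 0.0568) and Ramp3, another such accessory protein, at 0.61 ± 0.33 (adjusted p = 0.0945). These were the 2 of 5 with an unadjusted p under 0.05. The peptide gene Adm, adrenomedullin, was at -1.68 ± 0.71 (adjusted p = 0.161).

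Relatives of Nedd4 included the ubiquitin ligases Nedd4l, which rose by 0.93 ± 0.16 (adjusted p = 0.0016), and Smurf1, which rose by 0.51 ± 0.22 (adjusted p = 0.0352, to 0.381 over alternatives), with the other 6 of 8 not called, among them the adaptor Ndfip1 (0.16 ± 0.16, adjusted p = 0.110). In the gelsolin family, Gsn rose by 0.77 ± 0.24 (adjusted p = 0.0184) and the capping protein Capg fell by 0.62 ± 0.12 (adjusted p = 0.0405, to 0.282 over alternatives), with the other 5 not called (Vill at -0.90 ± 0.32, adjusted p = 0.145). The BEX and TCEAL list split, with Bex3 higher by 1.02 ± 0.22 (adjusted p = 0.0047) and Bex1 lower (-2.06 ± 0.52, adjusted p = 0.0307, to 0.187 over alternatives). Bex1 averaged 20.1 on Ro arrays, below background, and 110.4 in control cultures, and Tceal8 was not called (-0.55 ± 0.19). Among cadherins and catenins, Ctnna1, the alpha-catenin that links E-cadherin to actin, rose by 0.93 ± 0.17 (adjusted p = 0.0018), and the other 7 were not called (Cdh17 at 1.03 ± 0.61 and the catenin Ctnnd1 at 0.30 ± 0.26).

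The list of inhibitory receptors that holds Cd72 split. Fcgr2b, the inhibitory Fc receptor, fell by 1.69 ± 0.31 (adjusted p = 0.0100). Cd22, an inhibitory sialic acid-binding lectin of B cells, was called lower at -1.95 ± 0.34 (adjusted p = 0.0073), with a Ro mean of 37.6, below background. Siglecg, a related lectin, rose by 0.81 ± 0.20 (adjusted p = 0.0062). Near P2ry10, the lysophosphatidic acid receptor Lpar6 fell by 2.05 ± 0.29 (adjusted p = 0.0028), P2ry2 was called lower at -1.20 ± 0.31 with Ro and control signals below background (adjusted p = 0.0455, to 0.513 over alternatives), and Gpr132 rose by 0.77 ± 0.19 (adjusted p = 0.0058), with 11 of 14 not called. In the KCTD list only Kctd5 was called of 13, at 0.46 ± 0.22 (adjusted p = 0.0462, to 0.329 over alternatives), while Kctd10 (0.31 ± 0.19, adjusted p = 0.0655) and Kctd12b (-0.82 ± 0.22, adjusted p = 0.0796) did not pass. The retinoic acid list had 0 of 12 genes higher and 3 lower. Dhrs3, a retinaldehyde reductase and known retinoic acid target, fell by 2.26 ± 0.23 (adjusted p = 0.00049), Aldh1a2, which makes retinoic acid, by 1.35 ± 0.23 (adjusted p = 0.0090), and the repressor Hic1 by 1.83 ± 0.36 (adjusted p = 0.0122). With Ro, Hic1 was below background.

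**Figure D4:**
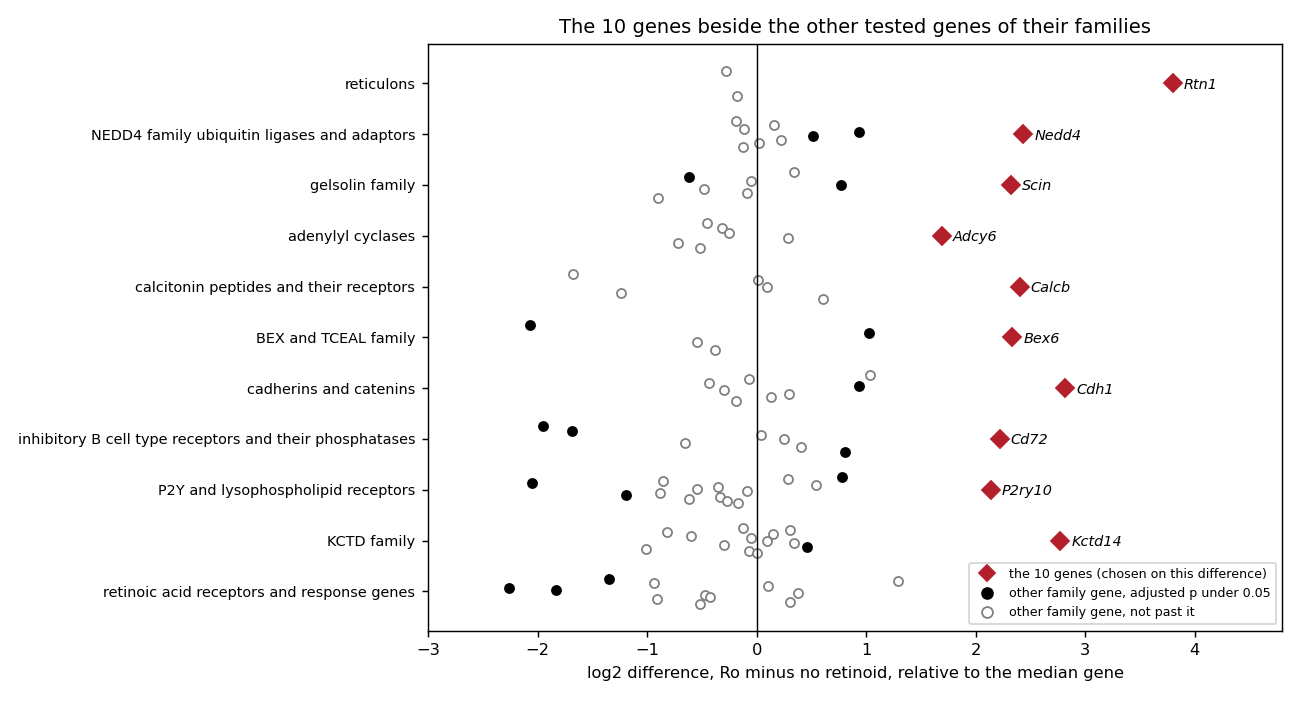
Log2 difference between Ro and no retinoid, relative to the median gene, for the 10 genes (red diamonds, chosen on this difference) and the other tested genes of each list (filled circles where the adjusted p was under 0.05). The 86 other genes scatter around 0, with 8 called higher and 9 called lower.

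Markers of cell types moved between Ro and other cultures as well, and their part in the members' Ro signals was not tested. Of 13 macrophage markers 0 were higher and 6 lower in Ro than in control cultures (median -1.52), and 0 higher and 9 lower in Ro than in RA cultures (median -1.79). The 3 brightest of that list did not pass, with Lyz2, the lysozyme gene, at -0.57 ± 0.18 (adjusted p = 0.196), Csf1r, the M-CSF receptor, at -1.38 ± 0.42 (adjusted p = 0.0704) and the complement gene C1qa at -1.67 ± 0.61 (adjusted p = 0.110). The 6 below control, named after their values were seen, were Trem2, Marco, Mrc1, Cd68, Mertk and Cd14. The summed macrophage signal was 58727 to 62530.3 in Ro cultures without LPS and 18375 to 25158 with LPS, where control cultures gave 63430 to 67415 and 55382 to 62672. Of 17 conventional dendritic cell markers 4 were higher and 0 lower in Ro than in control cultures (median 0.47), and 11 higher and 1 lower in Ro than in RA cultures (median 0.92). The 4 above control, again named after their values were seen, were Zbtb46, Irf4, Dpp4 and Ciita. The 3 brightest, the class II genes Cd74 (-0.23 ± 0.08), H2-Aa (-0.23 ± 0.11) and H2-Ab1 (-0.14 ± 0.11), were not called. The dendritic cell sum was 66214 to 69682 on Ro arrays and 36608 to 60046 on the others. It mostly follows Cd74, H2-Aa and H2-Ab1, which averaged 13692, 11592 and 10212.5 over all arrays. All marker sums are at the deposited scaling, where the median gene was 0.22 higher in Ro than in control cultures. The dendritic cell sum is therefore not read as a measure of dendritic cells.

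Langerhans cell markers other than Cdh1 stood beside the Cdh1 result. Of 7 tested, 3 were higher and 0 lower in Ro against control (median 0.37), and likewise 3 and 0 against RA (median 0.69). Mfge8, a secreted phosphatidylserine-binding protein, rose by 1.54 ± 0.26 (adjusted p = 0.0018) and the transcription factor Runx3 by 0.89 ± 0.23 (adjusted p = 0.0080), while Id2 (0.17 ± 0.21, adjusted p = 0.191) was not called. Cd207, the langerin gene that defines the type, was at 2.65 ± 0.83 (adjusted p = 0.0333). Cd207 ran from 3.45 to 1649 on the Ro arrays and was at most 6.44 on the other 8, so that it was not above background on all Ro arrays. The Langerhans sum was 14330 to 19285 on Ro arrays and 7740 to 12589 on the others. In control cultures it was 7740 to 9589 without LPS and 10690 to 12589 with LPS. Its brightest genes, Id2 and Mfge8, averaged 5721.7 and 3319.7 over all arrays, so that the sum mostly follows these genes. Cd207 was at most 6.44 on the control arrays, so the sum there is not read as a measure of Langerhans cells. The part of such cells in the fall of Cdh1 with LPS was not tested.

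B cell markers stood beside Cd72. Of 11 on the array, 6 (Cd79a, Ms4a1, Blk, Cr2, Fcer2a and Ebf1) were below background on all 12 arrays, and of the 7 tested 0 were higher and 1 (Cd22, also on the list of inhibitory receptors) lower in Ro cultures. The brightest, the immunoglobulin gene Ighm, was at 0.10 ± 0.34 (adjusted p = 0.526), and Cd79b was at -0.61 ± 0.41 (adjusted p = 0.526). The B cell sum was 959 to 2157 on arrays without LPS and 199.8 to 529 on arrays with LPS. Its brightest genes, Ighm and Cd22, averaged 651.5 and 152.7 over the 12 arrays, so that the sum mostly follows Ighm. The remaining lists, each in Ro against control, gave 0 higher and 2 lower of 10 for granulocytes (Mmp8 and Csf3r), 1 higher of 5 for plasmacytoid dendritic cells (Tcf4), 0 of 1 for T and NK cells, and 1 higher of 5 for mast cells and basophils (Cpa3, 1.78 ± 0.43, adjusted p = 0.0112). The granulocyte genes S100a8 and S100a9, the brightest of their list, were at -0.51 ± 0.49 and -0.25 ± 0.64 in Ro against control. Against RA the counts were 0 higher and 2 lower of 10 for granulocytes, 0 and 1 of 7 for B cells, 3 and 0 of 5 for plasmacytoid dendritic cells, 0 of 1 for T and NK cells, and 2 and 0 of 5 for mast cells and basophils.

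Markers also moved with LPS, beside the falls of Rtn1, Cdh1, Bex6 and Nedd4 and the rises of Kctd14 and Cd72, where 47.7% of all genes were lower. Lower with LPS were 9 of 10 granulocyte markers (1 higher, median -2.60), 9 of 17 conventional dendritic cell markers (3 higher, median -0.58), 7 of 13 macrophage markers (2 higher, median -0.41) and 4 of 5 mast cell and basophil markers (0 higher, median -0.52). So were 2 of 7 Langerhans cell markers (2 higher, median -0.15) and 3 of 5 plasmacytoid dendritic cell markers (1 higher, median -0.16). The counts were 2 of 7 for B cell markers (0 higher, median 0.43) and 0 of 1 for the T and NK cell marker (0 higher, 0.64). Their part in the members' LPS changes was not tested.

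**Figure D5:**
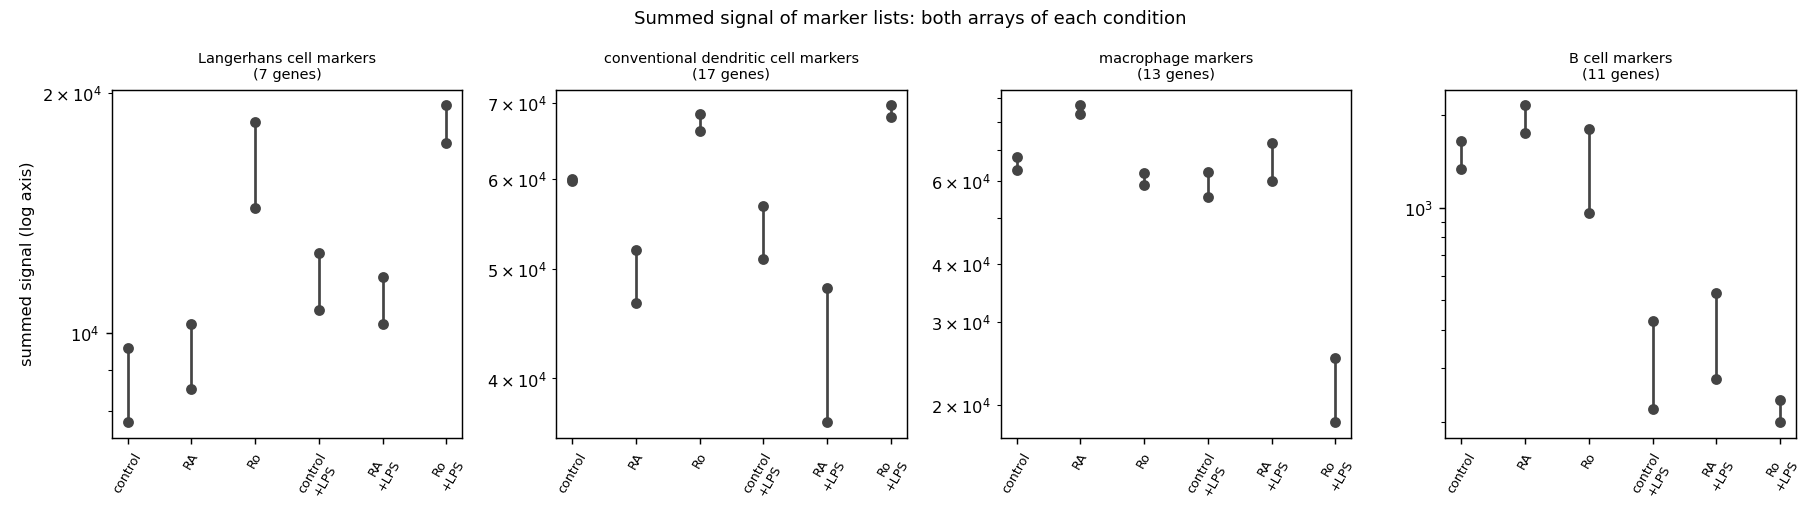
Summed deposited signal (log axes, different ranges) of 4 marker lists in each condition, with both arrays of a condition joined by a line. Langerhans and conventional dendritic cell sums are highest in the Ro conditions, the macrophage sum is lowest in Ro with LPS, and the B cell sum is lower in the LPS conditions.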

How the data were processed

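RNA of 12 cultures was measured on single-colour Affymetrix arrays. The deposited values are linear intensity (signal) values made by the authors with MAS5, per the submitters' processing notes, and detection calls were not used. Of 45101 probe sets, 34945 named 1 gene, 932 several and 9160 none, by the platform annotation, and 64 were controls. Signals ran from 0.0195 to 17488. The number of arrays limits the precision. Probe sets above their array's median on at least 2 of 12 arrays were kept, the brightest stood for its gene, and log2(signal + 16) was fitted with limma 3.58.1 (R 4.3.3) with an intensity trend.

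The model held retinoid, LPS and strain. A term for Ro and LPS, or Ro and strain, was added for differences between effects, and a model of 6 conditions and strain gave LPS changes within each retinoid state. Replicate number marks strain and served as the block, and the 15 pairs of conditions deviated together (r = 0.297 to 0.696). The fits were tested on simulated data. The members and all gene lists were chosen with earlier results of these data known. Genes named were the members, up to 3 relatives per list with the smallest p for Ro against control and any called ones, the 3 brightest genes of the main marker lists with defining markers at background, and the 8 genes most like the members' mean. No fold is given where a group mean lay below the highest array median, 41.8. Alternatives were the pseudocount (1, 64), no filter, all probe sets, no trend, quantile normalization, no replicate block, each strain alone, and leaving out each array.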

Additional observations from a re-analysis of the deposited data

Results flagged for a closer look

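Groups of 2 arrays are too small for a test of outlying arrays. For 5 differences in LPS change, both strains moved one way in one retinoid state and the opposite way in the other, at the deposited scaling, and the test of the difference did not pass.

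Scin was lower with LPS in control cultures of both strains (-0.66 in BALB/c and -0.22 in BL6) and higher in Ro cultures of both (0.13 and 0.0037), a difference of 0.36 relative to the median gene (adjusted p = 0.736). The BL6 Ro signals, 336 without and 337 with LPS, were nearly equal. Relative to the median gene, the LPS change of Scin was 0.09 ± 0.42 in control and 0.41 ± 0.42 in Ro cultures, so the directions were not opposite on that scale. Adcy6 was lower in control cultures (-0.63 and -0.75), higher in Ro cultures (0.42 and 0.51) and higher in RA cultures (1.57 and 0.24), which gave differences of 1.01 for Ro (adjusted p = 0.433) and 1.47 for RA (adjusted p = 0.851). Relative to the median gene, its change in control cultures was -0.17 ± 0.46. Its BALB/c RA signal without LPS, 30.6, was below background. Calcb was lower in control cultures (-0.77 and -0.97) and higher in RA cultures (0.27 and 0.26), all 4 RA signals being below background, with a difference of 1.01 (adjusted p = 0.916). P2ry10 was lower in control cultures (-1.58 and -2.23) and higher in RA cultures (0.07 and 0.44), a difference of 2.04 (adjusted p = 0.482). Its RA signals without LPS, 55.0 in BALB/c and 34.7 in BL6, were near or below background, which bounds any fall in RA cultures.

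Bex6 was flagged because the test of the difference passed, though not in every fit. Its LPS change in Ro cultures was -4.68 in BALB/c and -3.61 in BL6, that in control cultures -1.31 and -2.01, and that in RA cultures -0.57 and -0.40, with a difference between Ro and the other cultures of -3.16 (adjusted p = 0.0240). The Ro signals that enter this difference also chose the gene, and 3 of the 4 control and RA arrays without LPS lay below background. The call was lost with a pseudocount of 1 (adjusted p = 0.365), without the replicate block (0.100), without either BALB/c Ro array (0.149 to 0.150) and without the BL6 Ro array without LPS (0.0776).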

How the results depend on the processing

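Without the replicate block, the members called for LPS numbered 4 in control (from 7), 2 in RA (from 4) and 3 in Ro cultures (from 6), the member called for the difference of LPS changes was lost (0, Bex6 at adjusted p = 0.100), and 7 of the 17 relatives were called. Relatives called were 2 in BALB/c alone and 3 in BL6 alone. Leaving out 1 array at a time gave 6 to 6 members called for LPS, 2 to 4 for strain, 0 to 0 for RA, 0 to 2 for the difference of LPS changes, 0 to 0 for that of Ro changes between strains, 4 to 7 for LPS in control, 3 to 5 in RA and 4 to 6 in Ro cultures, and 11 to 17 relatives. No direction of a called value reversed. Among results on single genes, 130 calls were lost and 17 gained, with 2475 on the same side. The causes were not tested.

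Quantile normalization moved the split of calls over all genes for LPS from 1360 higher and 5931 lower to 3243 and 3369, for BALB/c against BL6 from 1416 and 473 to 910 and 972, and for Ro from 1746 and 541 to 854 and 851. The 6 LPS calls of members remained 2 higher and 4 lower, and the relatives went from 8 higher and 9 lower to 6 and 11. Within control, RA and Ro cultures the genes higher with LPS went from 992 to 2136, from 805 to 1681 and from 739 to 1618, and those lower from 4663 to 2538, from 3544 to 1939 and from 2970 to 1837. With each strain alone, strain differences, differences of LPS changes and LPS changes within a retinoid state were not run. Signals at or under an array's median bound how far Bex6, Cdh1, Rtn1, Calcb and Scin could be seen to fall. The P2ry10 signals in RA cultures lay near or below background as well.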
